A study of Mus musculus with 4 samples.

Results

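Resting splenic dendritic cells (DC) of mice without the scavenger receptor MARCO were set against those of wild-type (WT) mice, with 1 Affymetrix array on each side. The comparison is made over probe sets, the groups of short probes that read 1 transcript, whose brighter value on the 2 arrays was at least 32 on the linear scale of RMA, a method that corrects, normalizes and summarizes probe intensities. This limit was met by 11009 of 45037 probe sets (24.4%), after 104 Affymetrix controls had been left out of the 45141 in the table. With each gene read by the brightest probe set that carries its symbol alone, 5818 of 17097 genes met it. The WT array held RNA of DC of wild type mice and the MARCO-/- array RNA of DC of mice deficient in MARCO, and the labels give the genetic background of both as C56BL/6. Per the methods the mice were 8 to 12 weeks old, the controls were age- and sex-matched C57BL/6 mice bought from a breeder, and cells of 5 to 6 mice were combined for a preparation. The DC were taken from digested spleens by positive selection for CD11c, labelled as CD11c+CD80+CD86+MHC-II+ spleen dendritic cells, and kept overnight in medium with PBS. Which preparation gave the RNA, how the MARCO-/- line was bred relative to the controls and the substrain of either are not stated in the sources used here. The other pair of arrays, with DC of the same genotypes kept overnight in medium with 100 ng/ml LPS, is given only as values beside those of the PBS pair. With 1 array per genotype and condition there are no replicates, so ratios carry no error and no test, and genes are called at a fold of at least 2.

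MARCO is a class A scavenger receptor of macrophages that binds bacteria and other polyanionic ligands, and DC make it at a low level until they are activated. Conventional DC of the spleen take up antigen, cut it in endosomes and load the peptides on MHC molecules, and their subsets differ in the receptors they carry and in the T cells they prime. CD11c is also found on red pulp macrophages and on some NK and B cells, so a CD11c-positive preparation of the spleen can hold transcripts of these cells. In such bulk RNA, fewer cells of a type and less RNA per cell cannot be told apart.

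Marco itself read 8.05 on the WT array and 3.95 on the MARCO-/- array with PBS, and 3.15 and 4.25 with LPS. All 4 lie below the limit of 32 and near 4.87, the median of all values of the PBS arrays, and the sources used here do not say whether the probe set lies inside the deletion. The array therefore gives no clear check of the genotype labels. The defining markers of the labelled cell type were present, with 12 of 13 DC identity genes on the array at the limit, none of them past 1.5-fold and a median log2 ratio of -0.03. Flt3, the receptor of the cytokine that DC depend on, had 533 in WT and 489 in MARCO-/-. Zbtb46, a transcription factor of conventional DC, had 42.3 and 45.4, and Cst3, which encodes cystatin C, had 3235 and 3123. Transcripts of DC thus had similar intensities on both arrays.

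Most genes read alike on the 2 arrays. The median log2 ratio of MARCO-/- over WT over the 5818 genes was -0.00, their SD was 0.34, and 87.4% of them lay within 1.3-fold. Past 2-fold were 76 genes (1.31%), of which 50 (0.859%) were higher in MARCO-/- and 26 (0.447%) lower, and 154 of the 11009 probe sets (1.4%). At 1.5-fold there were 269 genes (4.62%), with 162 (2.78%) higher and 107 (1.84%) lower, and at 10-fold 7 genes were higher and 1 was lower. Brightness mattered to these calls. Both arrays reached 32 for 5421 genes, of which 15 were higher and 13 lower, while 397 genes reached it on 1 array alone and held the other 35 higher and 13 lower ones. For a gene that reached 32 on 1 array alone, the limit fixed the direction of its ratio. Among the 107 probe sets whose brighter value was just inside the limit, from 32 to 32.6, there was 1 past 2-fold, and among the 136 just below it, down to 31.4, there were 7, of which 4 were higher and 3 lower.

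**Figure D1:**
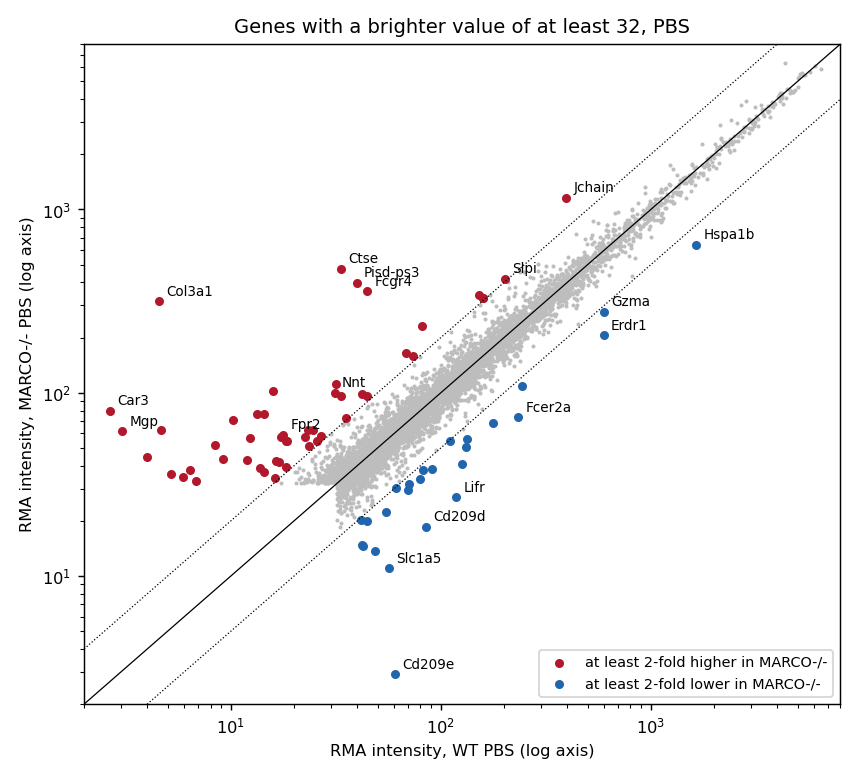
RMA intensity of 5818 genes on the WT PBS array (horizontal, log axis) and on the MARCO-/- PBS array (vertical, log axis); every gene is a point, read by its brightest probe set, the solid line marks equal values and the dotted lines 2-fold. The 50 higher genes (red) lie mostly at the left, where the WT value is below 32, and few called genes, such as Jchain, Hspa1b and Gzma, are bright on both arrays.

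Since no array was repeated, the agreement between probe sets of a gene is the measure at hand of how a ratio holds up, and it covers hybridization of different probes to the same RNA, not the spread between mice or preparations. Several probe sets of the same gene reached 32 for 1757 genes (4209 probe sets). Within these genes the SD of the log2 ratio was 0.19, and the ratios of a gene spanned less than 0.5 on the log2 scale for 91.7% of them. Where the brightest probe set differed by less than 1.3-fold, 1435 of 2242 other probe sets had its sign. The share was 89.0% between 1.3-fold and 1.5-fold and 88.9% between 1.5-fold and 2-fold. At 2-fold or more, 10 of 10 other probe sets of 8 genes had the same sign. All other probe sets of the pseudogene Pisd-ps3, of Nnt, a mitochondrial transhydrogenase, of Cd55, of Kctd14, of the heat shock gene Hspa1b and of the urea transporter gene Slc14a1 that reached 32 also passed 2-fold. Those of the transcription factor genes Sox4 and Zbtb10 had the same sign but stayed under 2-fold. Conversely, 8 genes under 2-fold by their brightest probe set had another one at the limit past 2-fold upwards, and 7 had one past 2-fold downwards, and the ratios of 11 genes spanned at least 1 on the log2 scale. For 2 of the former, both named after their values were seen, the signs were opposite, with log2 ratios of -0.69 and 1.08 for Rab7b, a GTPase of endosomes, and -0.26 and 1.12 for Hspa4, a chaperone of the HSP110 family. Agreement could not be read at this brightness for the rest. Of the 50 higher genes 27 had no other probe set and 21 had others that were all below 32, and of the 26 lower genes the counts were 12 and 8. At any brightness, 15 of the higher and 9 of the lower genes had another probe set under 2-fold.

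**Figure D2:**
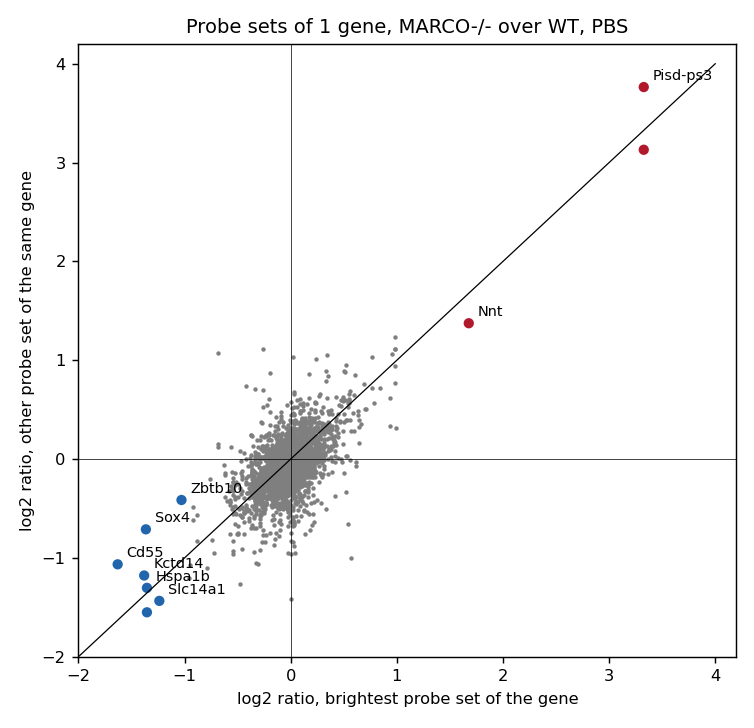
log2 ratio with PBS, MARCO-/- over WT, for the brightest probe set of a gene (horizontal) and for each other probe set of that gene with a brighter value of at least 32 (vertical); each point is 1 other probe set and the line marks equality. The 10 coloured points, of genes at least 2-fold higher (red) or lower (blue), all have the sign of the brightest probe set, and those of Sox4 and Zbtb10 stay under 2-fold.

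Genes that interferon induces mostly lay above 0, although several of them were close to the limit with PBS. The interferon-inducible GTPases attack the vacuoles of intracellular microbes, and 9 of the 10 on the array reached the limit. All 9 were higher in MARCO-/- DC, with a median log2 ratio of 0.82 against -0.00 over all genes. At least 1.5-fold higher were 6 of them (2.78% of all genes were), and at least 2-fold higher were 2 (0.859%). Irgm2 and Iigp1 reached 32 on the MARCO-/- array alone, so the limit fixed their direction. Tgtp1 read 158 in WT and 330.1 in MARCO-/- (2.09-fold), and Iigp1 had 23.4 and 62.6 (2.67-fold). The other members of the family were under 2-fold, with 172 and 339 for Ifi47, 17.3 and 32.1 for Irgm2, 41.5 and 73.4 for Igtp, and 58.4 and 99 for Gbp7. Gbp3 had the smallest difference, with 76.9 and 84.9. Members of this family are near-identical in part, so the signal of a probe set may be shared between them. With LPS all of them were brighter in both genotypes and their median log2 ratio was 0.04. Tgtp1 then had 1522 in WT and 1155 in MARCO-/-, and Ifi47 1209 and 1031.

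Promoters of some of the GTPases are shown to describe the family. The sequences are those of RefSeq on build GRCm38.p6, the 120 bases before the transcription start, read 5′ to 3′ on the strand of the gene, and the capitals mark a match to GAAA, any 2 bases and GAAA again, on either strand, the core of the element that interferon-activated factors bind.
Gbp7 (chr3:142530216-142530335, plus strand): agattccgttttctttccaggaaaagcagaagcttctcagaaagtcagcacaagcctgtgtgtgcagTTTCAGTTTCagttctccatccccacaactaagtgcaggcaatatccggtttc
Igtp (chr11:58199436-58199555, plus strand): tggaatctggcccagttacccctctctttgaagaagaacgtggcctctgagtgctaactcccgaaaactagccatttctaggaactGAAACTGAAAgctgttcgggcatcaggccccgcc
Irgm2 (chr11:58214857-58214976, plus strand): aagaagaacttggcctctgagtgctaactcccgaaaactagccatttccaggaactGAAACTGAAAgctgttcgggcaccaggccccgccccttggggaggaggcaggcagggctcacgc
Tgtp1 (chr11:48992247-48992366, minus strand): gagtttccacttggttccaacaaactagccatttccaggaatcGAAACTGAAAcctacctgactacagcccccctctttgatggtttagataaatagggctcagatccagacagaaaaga
The first base of the match lies at -53 from the start in Gbp7, at -34 in Igtp, at -64 in Irgm2 and at -77 in Tgtp1. In the 250 bases upstream, 7 of 8 GTPase genes at the limit with a promoter in the table held a match (87.5%), against 162 of 4798 genes at the limit (3.38%) and 978 of 32851 promoter windows of the genome (2.98%). The list was made of genes that interferon induces, and the motif was chosen after their ratios were seen. A high share thus follows from the choice of list and is not a result of these arrays. The windows of Igtp and Irgm2 share a long stretch, so they are not independent examples, and Ifi47 had no match. Of the genes at least 2-fold higher with a promoter in the table, 4 of 33 held it (12.1%). A match is a description of these letters and not a shown binding site.

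The antiviral interferon-stimulated genes, which block viral replication or sense viral RNA, had a similar shift. Of 30 on the array 18 reached the limit, of which 17 were higher in MARCO-/- and 1, Mx1, was lower (47.7 and 35.3). Their median log2 ratio was 0.52, 7 passed 1.5-fold upwards (2.78% of all genes did) and 2 of these passed 2-fold (0.859%). Rsad2, which encodes viperin, had 41.9 in WT and 98 in MARCO-/- (2.34-fold), although its other probe sets, all below 32, were under 2-fold. Rtp4, a transporter-like protein induced by interferon, had 44.4 and 96.3 (2.17-fold). Isg20, an exonuclease, had 36 and 67.2, and Oas1g, a sensor of double-stranded RNA, 47.2 and 86.7. Irf9, a part of the factor that binds interferon response elements, had 106 and 154, and Stat2, its partner, 35.6 and 47.6. With LPS these genes except Ifitm3 were brighter on both arrays than with PBS, and the median log2 ratio of the 18 was 0.37. Rsad2 then had 613 in WT and 794 in MARCO-/-. The promoter match stood in 3 of 12 of these genes (25%), and this too describes the list, not these arrays.

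Fcgr4, the genes of C1q and most genes of red pulp macrophages were higher in MARCO-/- DC as well. Fcgr4, which binds IgG and activates the cell, read 44.7 in WT and 359 in MARCO-/- (8.03-fold), by its only probe set, and both LPS arrays were below 32. It belongs to the list of neutrophil and monocyte genes, which had no common direction. Of its 10 genes at the limit 4 were above 0 and 5 below, with a median log2 ratio of -0.03. The genes of the 3 chains of C1q, which starts the classical pathway, were all higher, as C1qa read 239.5 and 458, C1qb 159 and 328, and C1qc 153 and 339.6, and the latter pair passed 2-fold. With LPS the direction was the opposite for all 3, where C1qa had 36.8 and 6.06, C1qb 17.8 and 5.58, and C1qc 21.5 and 7.01, so that C1qa alone reached the limit and only on the WT array. Of the 30 complement genes on the array 9 reached the limit, with 2 higher and 1 lower by 2-fold (0.859% and 0.447% of all genes). The lower gene was Cd55, which shields cells from complement, with 126 in WT and 40.9 in MARCO-/-. Beside these results, 14 of 16 red pulp macrophage genes at the limit were higher and 2 lower, with a median log2 ratio of 0.36. None passed 2-fold and 3 passed 1.5-fold upwards (2.78% of all genes did). The summed intensity of the 20 red pulp macrophage genes on the array was 2942 in WT and 3799 in MARCO-/-. Fcna, a ficolin of macrophages, had 144 and 274, Cd5l, a scavenger-like secreted protein, 159 and 271, and Adgre1, which encodes F4/80, 182 and 298. Slc40a1, the iron exporter of these macrophages, had 521 and 703. The part of macrophage transcripts in the Fcgr4 and C1q results was not tested. Of the other Fc receptor genes Fcgr2b, the inhibitory receptor, had 356 and 396, and Fcer1g, the signalling chain shared by activating receptors, 677 and 958.

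Cd209d and Cd209e, of the CD209 family of lectins that bind glycans of pathogens, were among the lower genes, and Cd209e had the lowest ratio of any gene. Cd209e read 60.4 in WT and 2.91 in MARCO-/-, a value below the median of the array that leaves the fold set by the background, and Cd209d had 85.1 and 18.6 (4.58-fold lower). Each was read by 1 probe set, and with LPS both were near background in either genotype. Cd209a, which marks conventional DC 2, had 219 and 189. Among 10 CD209 and C-type lectin genes at the limit, of 23 on the array, Cd209e and Cd209d were past 2-fold (0.447% of all genes were lower by as much). At 1.5-fold 3 were higher (2.78% of all genes) and 4 lower (1.84%), and the median log2 ratio was -0.18. Clec7a, which encodes the beta-glucan receptor dectin-1, had 813 in WT and 436 in MARCO-/-. Clec4n, which encodes dectin-2, a receptor for fungal mannans, went the other way, with 79.8 and 158. Ly75, which encodes the uptake receptor DEC-205, had 71.9 and 45.7, and Clec4a2, an inhibitory receptor of DC, 67.1 and 110.0. All but Cd209d and Cd209e stayed under 2-fold, and the list as a whole had no common direction.

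Fcer2a, which encodes the low-affinity IgE receptor CD23 of B cells, had 233 in WT and 73.5 in MARCO-/- (3.17-fold lower). Its other probe set, below the limit, had 20.9 and 3.77. Most B cell genes were lower beside it, with 16 of 19 at the limit below 0 and a median log2 ratio of -0.26. At least 2-fold lower was 1 of them (0.447% of all genes were), and at least 1.5-fold lower were 5 (1.84%). The summed intensity of the 21 B cell genes on the array was 4514 in WT and 3836 in MARCO-/-. Ebf1, a transcription factor of the B lineage, had 133 and 70.4, and Bach2, which keeps B cells from becoming plasma cells, 173 and 103. Ms4a1, which encodes CD20, had 787 and 647, while Cd79a, a chain of the B cell receptor complex, had 40.1 and 39.8. Cd72, a coreceptor of B cells, was higher, with 175 and 316. Their part in the Fcer2a result was not tested. Jchain, which joins the units of secreted IgM and IgA, was among the brightest of the higher genes, with 396 in WT and 1157 in MARCO-/- (2.93-fold), and with LPS it had 152 and 365. Of the 5 plasma cell genes at the limit 4 were higher and 1 lower, and Xbp1, a factor of secretory cells, had 527 and 729.9.

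NK cell genes split in direction. Gzma, which encodes the protease granzyme A, had 597 in WT and 277 in MARCO-/- (2.16-fold lower), and Gzmb had 41.6 and 20.1. Both were lower with LPS too, with 209 and 54.7 for Gzma. The receptor genes Ncr1, which encodes NKp46, and Cd160 were higher, with 33.5 and 96 for Ncr1 and 24.6 and 62.6 for Cd160. Other NK cell genes differed little, such as Klrd1, which encodes CD94, with 616 and 573, and Nkg7, a granule protein, with 199 and 194. Of 15 NK cell genes at the limit, 8 were above 0 and 7 below, with a median log2 ratio of 0.12 and a summed intensity over 20 genes of 2412 in WT and 2156 in MARCO-/-. Of 9 erythroid genes at the limit 8 were higher, 3 of them past 2-fold (0.859% of all genes were), with a median of 0.52. Slc4a1 and Alas2 among these reached the limit on the MARCO-/- array alone, so the limit fixed their direction. Both are included in these counts and in the median. Slc4a1, the anion exchanger of red cells, had 13.4 and 76.7, Car2, a carbonic anhydrase, 81 and 230.5, and Alas2 of heme synthesis 18.2 and 39.5. The alpha globin gene Hba-a1 had 4372 and 6275.

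**Figure D3:**
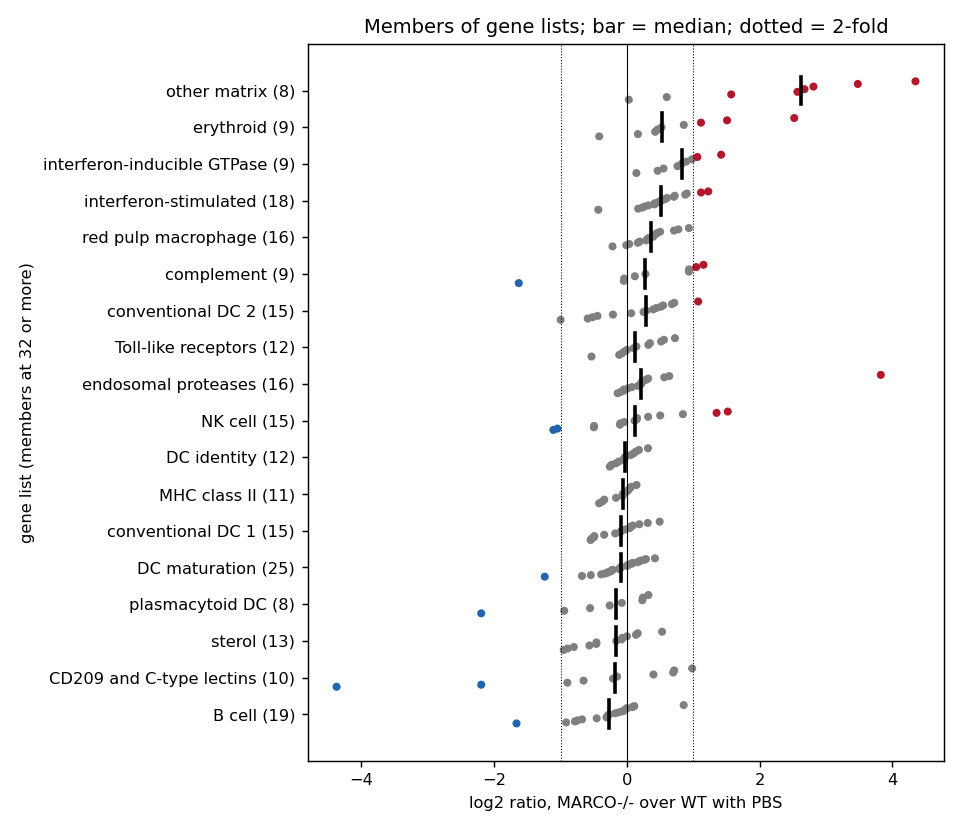
log2 ratio with PBS, MARCO-/- over WT, (horizontal) of the genes with a brighter value of at least 32 in 18 gene lists (vertical, with the number of such genes in brackets); each point is 1 gene, the bars are list medians and the dotted lines mark 2-fold (red higher, blue lower). The 9 interferon-inducible GTPases all lie above 0 with a median of 0.82, and Irgm2 and Iigp1 among them reached 32 on the MARCO-/- array alone. Of the B cell genes 16 of 19 lie below 0, and the DC identity and MHC class II genes lie close to 0.

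The lists of DC subsets are described in turn, and no difference between them was tested. Of all genes at the limit 4.62% were past 1.5-fold, so none in a list of 15 is near that share. None of 15 genes of conventional DC 1, the subset that cross-presents antigen to CD8 T cells, passed 1.5-fold, at a median log2 ratio of -0.08. Xcr1, the chemokine receptor of that subset, had 309 in WT and 219 in MARCO-/-, Cd8a 357 and 244, and the transcription factor gene Batf3 314 and 334. Among 15 genes of conventional DC 2, 3 were at least 1.5-fold higher and 2 lower (2.78% and 1.84% of all genes). Esam, an adhesion molecule of a Notch2-dependent part of that subset, had 25.8 and 54.3 (2.10-fold). Ccr2, the receptor that monocytes and their progeny use to leave the marrow, had 127 and 63.5, just under 2-fold, and it passed 2-fold when the arrays were centred on their medians. Irf4, a factor of conventional DC 2, had 143 and 95, and Klf4, which its development needs in part, 629 and 439.5. The 8 plasmacytoid DC genes at the limit had a median of -0.17, and 2 were at least 1.5-fold lower (1.84% of all genes were). One was Cd209d, described above, which was past 2-fold. The other, the chemokine receptor gene Ccr9, had 157 and 81.7, and another of its probe sets passed 2-fold (log2 ratio -1.07). Tcf4, the master regulator of plasmacytoid DC, had 139 and 94.7, and Spib, another of its factors, 203 and 192.

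Chemoattractant receptors had no common direction. Fpr2, a receptor for formyl peptides of bacteria, read 17.7 in WT and 59 in MARCO-/- (3.33-fold) with PBS, against 145 and 287 with LPS. No other of the 10 such receptor genes at the limit, of 27 on the array, passed 2-fold. Ccrl2, which binds chemerin without signalling, had 212 and 375, Cxcr3 59.7 and 94.9, and Gpr183, the oxysterol receptor that places DC at the bridging channels, 369 and 247. Chemokines past 2-fold were Ccl8, with 9.22 in WT and 43.6 in MARCO-/-, and Ccl22, which draws regulatory T cells, with 91.1 and 38.6. Ccl22 is also the only DC maturation gene of 25 at the limit past 2-fold, and Il4i1, an enzyme of maturing DC that breaks down amino acids, had 239 and 149.6. The costimulatory genes Cd86, Cd40 and Cd80 were under 1.5-fold, with 255 and 260.4 for Cd86, 204 and 206 for Cd40, and 56.2 and 75.3 for Cd80, which had the highest ratio of the list. The median log2 ratio of the list was -0.09. None of 12 genes of Toll-like receptors and their co-factors passed 2-fold, with Cd14, the LPS co-receptor, at 53.6 and 88.5, Myd88, their adaptor, at 132 and 142, and Tlr3, the sensor of double-stranded RNA, at 118 and 81.6. None of 17 NF-kB pathway genes passed 1.5-fold. Of 17 TGF-beta pathway genes 2 passed 2-fold, the matrix protein gene Ccn2 and the integrin gene Itgb5, while Smad1, Smad2, Smad3, Smad4 and Smad7 had log2 ratios between -0.00 and 0.12.

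Of the antigen presentation genes Ctse stood apart. Ctse, which encodes the endosomal aspartic protease cathepsin E, read 33.6 in WT and 476 in MARCO-/- (14.2-fold) with PBS, against 8.71 and 262 with LPS, by a single probe set. The other 15 endosomal protease and inhibitor genes at the limit stayed under 2-fold, 11 of them above 0. Ctsd, the related lysosomal cathepsin D, had 162 and 252, Napsa, an aspartic protease, 61.8 and 91.2, and Ctss, which cuts the invariant chain in DC, 2157 and 2420.4. None of 11 MHC class II genes and none of 11 MHC class I loading genes passed 1.5-fold. H2-Aa had 4999.8 and 5231, H2-DMa, which helps peptides exchange, 1105 and 872, and Ciita, which drives class II transcription, 375 and 334. Slc15a2, a transporter of short peptides, had 12.4 in WT and 56.7 in MARCO-/- (4.58-fold) with PBS, against 6.86 and 64.5 with LPS, although its other probe sets were near background and under 2-fold. Ctse and Slc15a2 thus had the higher value in MARCO-/- on both pairs of arrays.

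The 3 highest ratios of any gene were those of Col3a1, Car3 and Mgp, genes of matrix and muscle that were near background in WT. Col3a1, a fibrillar collagen, had 4.57 in WT and 315 in MARCO-/-, Mgp, an inhibitor of calcification, 3.03 and 61.7, and Postn, which encodes periostin, 4.01 and 44.6. Car3, a muscle and fat carbonic anhydrase, had 2.67 and 79.9, and Acta1, skeletal actin, 4.65 and 62.7. Folds against such WT values are set by the background and are not given. On the LPS arrays the same genes lay the other way round, with 959 in WT and 12.1 in MARCO-/- for Col3a1, 233 and 2.86 for Mgp, and 159 and 4.80 for Acta1, so that in each condition 1 array read them high and the other read them low. Few members of these lists reached the limit with PBS, namely 2 collagens (of 23), 8 further matrix genes (of 37), 6 genes of skeletal muscle (of 31) and 3 fibroblast genes (of 24). Past 2-fold upwards were both collagens, 6 of the further matrix genes, 2 of the muscle genes and 0 of the fibroblast genes, with 0 past 2-fold downwards. Of 4 endothelial genes at the limit (of 24) 2 were past 2-fold upwards, namely Fabp4 (14.4 and 76.1), a fatty acid carrier that adipocytes also make, and Esam, which is also in the list of conventional DC 2. Acta2 (8.42 and 52.0), the only smooth muscle and pericyte gene at the limit, was also past 2-fold upwards. Below the limit, 8 further matrix, 8 skeletal muscle, 7 collagen, 3 fibroblast, 2 endothelial and 1 smooth muscle and pericyte genes were higher by 2-fold or more. In these lists 0 were lower by as much there. The smooth muscle and pericyte gene below the limit was Rgs5 (3.08 and 22.2). The defining markers Pdgfra (2.23 in WT and 2.20 in MARCO-/-) and Pdgfrb (3.56 and 4.61) of fibroblasts and Cdh5 (3.30 and 5.86) of endothelium were near background on both arrays. Without the lists of collagen, other matrix, fibroblast, smooth muscle, endothelial, skeletal muscle, adipocyte and erythroid genes, 34 genes remained at least 2-fold higher and 26 lower.

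**Figure D4:**
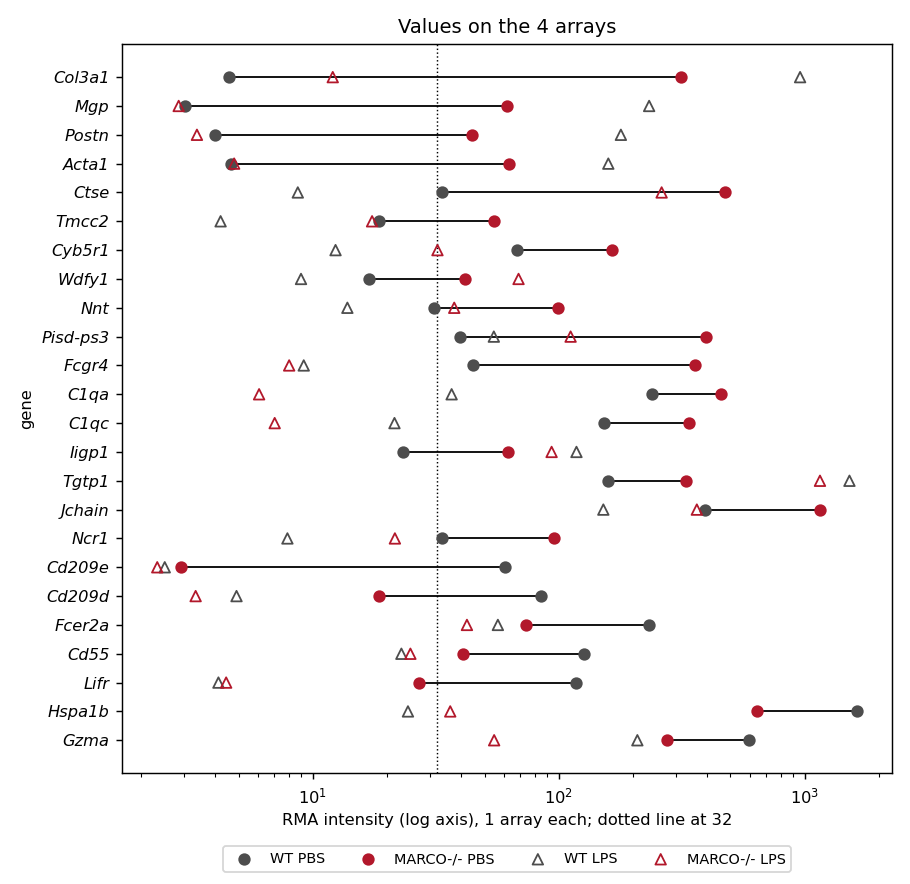
RMA intensity (log axis) of 24 genes on the 4 arrays; filled circles are the PBS arrays, joined by a line, and open triangles the LPS arrays, in grey for WT and red for MARCO-/-, and the dotted line marks 32. Col3a1, Mgp, Postn and Acta1 are high on the MARCO-/- PBS and the WT LPS arrays, whereas Ctse, Tmcc2, Cyb5r1, Wdfy1, Nnt, Pisd-ps3 and Jchain are higher in MARCO-/- in both pairs.

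Genes of stress and metabolism held a few large differences and, in some lists, smaller ones with a common direction. Hspa1b, an inducible HSP70 chaperone, was the brightest of the lower genes, with 1641 in WT and 642 in MARCO-/- (2.56-fold lower), and its other probe sets had 618.5 and 211, and 918 and 372. By its brightest probe set no other of the 15 heat shock genes at the limit passed 1.5-fold, and with LPS Hspa1b had 24.4 and 36.3. Hspa8, the constitutive chaperone of the same family, had 2932 and 3067. Cirbp, an RNA-binding protein induced by cold, had 133 and 55.7 (2.40-fold lower). Of 14 amino acid stress genes Slc1a5, a glutamine transporter, had 56.4 and 11 (5.12-fold lower), and Ddit4, an inhibitor of mTORC1, 10.2 and 71 (6.96-fold). The lower value of each was little above background, which in part sets the size of these folds. The other probe set of Slc1a5, below the limit, had 25.4 and 12.9 (1.97-fold lower), and with LPS the brighter one had 41.1 and 51. Atf4, the factor that links the list, had 682 and 555. In the sterol list 9 of 13 genes at the limit were below 0 and 3 at least 1.5-fold lower, all 3 from cholesterol synthesis (1.84% of all genes were lower by as much), with 94.5 in WT and 48.8 in MARCO-/- for Idi1, 38.8 and 20.9 for Sqle, and 61.2 and 35.1 for Fdps. Abcg1, which exports cholesterol, had 299.7 and 433, and the median of the list was -0.16. Of 22 chaperone and unfolded protein response genes of the endoplasmic reticulum 19 were above 0, with a median of 0.23 and none past 2-fold. None of 39 ribosomal protein genes, 36 respiratory chain genes or 30 proteasome genes passed 1.5-fold.

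Among the other lower genes were Lifr, the receptor of leukemia inhibitory factor, with 118 in WT and 27 in MARCO-/- (4.38-fold lower), and Nfil3, a transcription factor of DC and NK cell development, with 242 and 109. Erdr1 had 596 and 206, and 298 and 155 with LPS. Gp2, a receptor for bacterial fimbriae, had 42.1 and 14.8, and Sox4 had 176 and 68.6. Higher genes outside the lists above were Igfbp4, a binding protein of insulin-like growth factors, with 11.9 and 43.2, and Scel, with 6.85 and 33.1. Of 27 cell cycle genes at the limit Kif11 alone passed 2-fold, with 26.8 and 58.0. Its other probe set, below the limit, had 25.7 and 26.5. Ccnd2, which encodes cyclin D2 and is not in that list, had a log2 ratio of 0.98 by its brightest probe set. Its other probe sets at the limit had 1.12, 1.24, 0.94 and 1.11. The first of these read 130 in WT and 282 in MARCO-/- with PBS, against 946 and 878 with LPS. Slpi, an inhibitor of serine proteases, had 202 and 419.7 with PBS, against 136 and 481 with LPS, and was well above the limit on all 4 arrays. Probe sets without a symbol in the annotation used held 23 of the 86 higher probe sets (0.781% of 11009 were higher) and 29 of the 68 lower ones (0.618%), and 1 more lower probe set has several symbols. The lowest ratio of these belonged to 1434624_PM_x_at, which read 1767 on the WT and 35.1 on the MARCO-/- array with PBS, against 1709 and 21.5 with LPS (50.3-fold lower with PBS), and the highest to 1450857_PM_a_at, which had 3.69 and 206 with PBS, against 627 and 9.09 with LPS.

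Some of the genes that were higher or lower lie near Marco. In the gene order of the GRCm38.p6 annotation, the 100 array genes that follow Marco on chromosome 1 hold 37 at the limit, of which 3 were higher (Ctse, Tmcc2 and Cyb5r1) and 2 lower (Cd55 and Lad1), which is 13.5% against 1.42% of the 281 on the rest of the chromosome and 0 of 32 among the 100 that precede it. This window was set after the values were seen, and Lad1 is its 100th gene. With PBS Tmcc2 had 18.6 in WT and 54.8 in MARCO-/-, against 4.23 and 17.5 with LPS, and Cyb5r1, a reductase, had 67.9 and 165, and 12.4 and 32.2. Lad1 had 48.4 and 13.7 with PBS, against 42.3 and 33.3 with LPS. On chromosome 8 the lower genes Fcer2a, Cd209e and Cd209d lie within a run of 5 array genes that also holds Cd209a. Nnt, on chromosome 13, in which the substrain C57BL/6J is known to carry a deletion, had 31.2 and 99.9 with PBS, against 13.9 and 37.7 with LPS. Pisd-ps3 had 39.8 and 399 with PBS, and its other probe sets had 57.5 and 503, and 36.2 and 491. Wdfy1, an endosomal adaptor of Toll-like receptors, had 16.9 and 41.8, and 8.98 and 68.8 with LPS. By the brightest probe set, Cd55 alone of these genes had a ratio of the opposite sign with LPS, at 23 and 25. Its other probe set at the limit with PBS had 18.5 and 11.7 with LPS, and another, below it, 4.14 and 6.47. All these Cd55 values with LPS were below 32. Several of the genes, such as Cd209e, were near background with LPS.

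**Figure D5:**
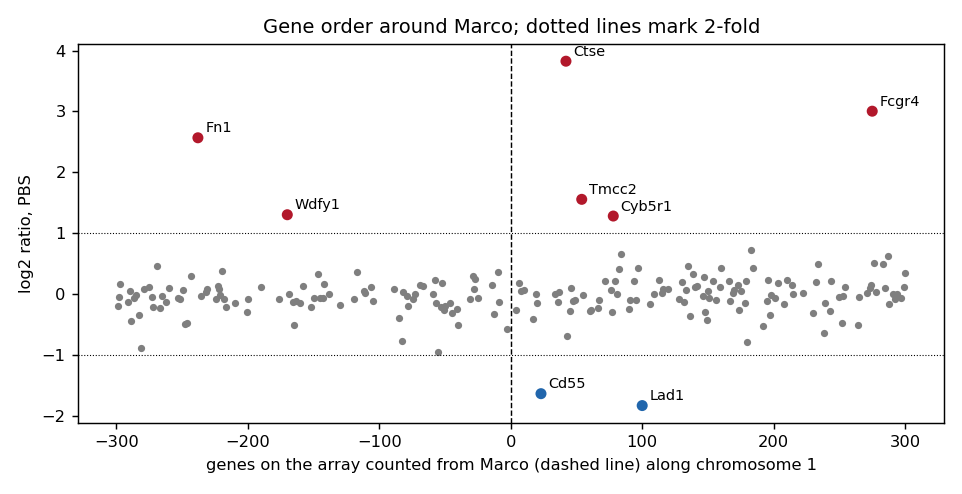
log2 ratio with PBS, MARCO-/- over WT, (vertical) of genes with a brighter value of at least 32, placed by the number of array genes from Marco along chromosome 1 (horizontal, dashed line at Marco); dotted lines mark 2-fold, red points are higher and blue points lower. Cd55, Ctse, Tmcc2, Cyb5r1 and Lad1 lie among the 100 genes that follow Marco, and none of the 32 genes at the limit among the 100 that precede it is past 2-fold.

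The LPS arrays give another reading of the genotypes under another treatment, and whether their RNA came from the same preparations is not stated in the sources used here. Of the 50 higher genes 33 reached 32 on an LPS array, of which 8 were at least 2-fold higher there too, 9 were higher by less, 3 were lower by less and 13 were at least 2-fold lower. Of the 26 lower genes 17 did, of which 2, Gzma and Gzmb, were at least 2-fold lower there too, 7 were lower by less, 7 were higher by less and 1, Adam11, was at least 2-fold higher. The difference between the genotype ratios of the 2 conditions was not tested.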

How the data were processed

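The 4 arrays, with 1 each for WT PBS, MARCO-/- PBS, WT LPS and MARCO-/- LPS, are Affymetrix Mouse Genome arrays. The authors normalized the intensity values with RMAexpress (version not given in the sources used here), which corrects background, normalizes between arrays and summarizes the probes of a set, and deposited them on a linear scale. Their log2 was taken with no offset. Depth does not apply, and the number of arrays limits the precision: there is no error, test or adjusted p.

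In the annotation used, 28898 of 45037 probe sets had 1 symbol, 551 several and 15588 none listed. A gene was read by its probe set with the highest mean log2 value over the 4 arrays among those of its symbol alone. Named were the 20 genes with the highest and the 20 with the lowest ratio past 2-fold, list members past 2-fold, Marco, and up to 6 members of a list with the highest PBS mean. Further list members, Nnt, Slpi, Ccnd2, Tmcc2, Cyb5r1, Wdfy1, Zbtb10, Adam11 and the probe sets without a symbol were chosen after their values were seen, as were the 1.3-fold band and the promoter motif. The members and the 52 gene lists (1127 of 1288 entries on the array) were chosen with earlier results of these data known. Alternatives were other limits, folds, normalizations, an offset and other choices of probe set, and the limit on the dimmer value was added after seeing the data. The steps were tested on simulated data. Python 3.11.15 (numpy 2.4.6, pandas 2.3.3, matplotlib 3.10.9) and R 4.3.3 (limma 3.58.1) were used.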

Additional observations from a re-analysis of the deposited data

Results flagged for a closer look

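For 14 genes past 2-fold with PBS the ratio of MARCO-/- over WT passed 2-fold the opposite way with LPS, with a brighter value of at least 32 in both conditions. With 1 array per group the difference between the conditions was not tested. For the 12 genes from Mgp to Ccn2 named next the MARCO-/- LPS value lay between 2.86 and 12.3, near or little above the median of the PBS arrays (4.87), so the size of these ratios is set in part by the background and only their direction is read. The genes higher with PBS had these log2 ratios with LPS: Mgp -6.35, Col3a1 -6.31, Postn -5.73, Car3 -5.67, Sparc -5.32, Acta1 -5.05, Bgn -4.69 and Col4a1 -4.21. Further such genes were Ccl8 with -3.95, Acta2 with -3.72, Fn1 with -3.46, Ccn2 with -2.78 and Fabp4 with -1.10. Adam11, lower with PBS, had a log2 ratio of 1.20 with LPS. Ccl8 is a chemokine, and most of the others are genes of matrix, muscle or fat.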

How the results depend on the processing

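The choice of limit and threshold moved the counts more than normalization did. From 86 higher and 68 lower probe sets, quantile normalization gave 96 and 67, cyclic loess 96 and 63, and centring on the array medians 84 and 73. From 50 higher and 26 lower genes these gave 57 and 26, 56 and 24, and 50 and 27. With no limit on brightness 231 probe sets passed 2-fold upwards and 199 downwards, with a limit of 16 the counts were 140 and 130, with 64 they were 43 and 30, and with 200 they were 19 and 9. For genes the higher counts at these limits were 130, 80, 23 and 10, and the lower ones 49 with no limit, 17 at 64 and 5 at 200. With 16 added to each value before the log2, 50 probe sets were higher and 23 lower, and 32 and 14 genes. At 1.5-fold 288 probe sets were higher and 359 lower, and 162 and 107 genes, and at 3-fold 37 and 12 probe sets, and 24 and 7 genes. When probe sets with x_at, s_at or a_at in the name were left out, 54 probe sets were higher. With the dimmer value also at 32 or more, a setting added after the data were seen, 31 probe sets were higher and 21 lower, and 15 and 13 genes. The median log2 ratio of other matrix genes was 1.28 with 16 added and 0.71 with no limit, and that of adipocyte genes 0.19 with no limit. All 76 called genes kept their sign under quantile normalization, cyclic loess, centring and the offset. They stayed past 2-fold under quantile normalization and centring, 74 did under cyclic loess (Adam11 and Zbtb10 came to 1.99-fold) and 46 with 16 added. No paired analysis was possible because each group has 1 array.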
